A study of Mus musculus with 15 samples.

Results

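The genes described here are 10 transcripts of the acute phase and of signaling through STAT3 in mouse spleen: the secreted proteins Serpina3n, Saa3, Lcn2 and Hp, the receptor genes Osmr and Il1r2, the receptor antagonist Il1rn, the transcription factor gene Stat3, the feedback inhibitor Socs3 and the NF-kB cofactor Bcl3. They were chosen by name, with earlier results of these data known. Each was matched by 1 feature of the array whose annotation held a single gene symbol. All 10 of the 10 were thus found among 19572 features with 1 symbol and 22206 features tested. Total RNA of spleens of male C57bl/10 mice was hybridised to 15 Clariom S arrays, 1 for each spleen. The mice had lost 70% of the liver by surgical resection 1, 3 or 7 days earlier (3 spleens each) or were intact, that is, not operated (6 spleens). Sham-operated mice were not on these arrays, so surgery and anesthesia as such cannot be told apart from the loss of liver tissue. The mice carried no allele or transgene that the labels or the methods name.

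The acute phase is the systemic reaction to injury and infection, in which interleukin 6 and related cytokines act on hepatocytes and other cells. These cytokines bind receptors that share the gp130 chain, JAK kinases phosphorylate STAT3, and STAT3 dimers enter the nucleus and activate genes of secreted acute phase proteins together with Socs3, whose product shuts the receptor down again. Interleukin 1 and NF-kB act on many of the same genes, C/EBP proteins bind their promoters, and in the spleen several of them are abundant in granulocytes and their precursors. After liver resection interleukin 6 and STAT3 are known for their part in the priming of hepatocytes, and the spleen lies upstream of the liver in the portal circulation.

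Of the 10 genes, 9 were found in a table of mouse promoters from RefSeq, which gives 250 bases before and 50 bases after a transcription start of the GRCm38.p6 build. Hp was not in it. These promoters were searched on both strands for the STAT motif TTCNNNGAA and for the C/EBP motif TTGCNNAA, read on the other strand as TTNNGCAA, which do not overlap in the windows shown. The STAT motif was found in the windows of 2 genes, Il1r2 and Socs3, and the C/EBP motif in those of 2 others, Lcn2 and Saa3, among 11 windows of the 9 genes. Over all 32851 promoters of the table the shares with a match were 8.3% for STAT and 10.8% for C/EBP. The windows with a match are printed because Saa3 and Il1r2 had the highest Pearson r of the 45 pairs of the 10 genes and Socs3 is a classical direct target of STAT3, and that of Serpina3n because its difference on day 1 was the largest. Each is written 5′ to 3′ on the strand of the gene, with the motif in capitals.
Saa3, chr7:46715627-46715926, strand -: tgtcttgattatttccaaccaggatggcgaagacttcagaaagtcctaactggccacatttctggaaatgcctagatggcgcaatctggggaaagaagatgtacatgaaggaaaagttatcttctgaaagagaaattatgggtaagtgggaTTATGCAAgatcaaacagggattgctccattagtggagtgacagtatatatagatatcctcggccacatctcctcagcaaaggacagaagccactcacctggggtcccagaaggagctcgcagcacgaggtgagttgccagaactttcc
Lcn2, chr2:32387690-32387989, strand -: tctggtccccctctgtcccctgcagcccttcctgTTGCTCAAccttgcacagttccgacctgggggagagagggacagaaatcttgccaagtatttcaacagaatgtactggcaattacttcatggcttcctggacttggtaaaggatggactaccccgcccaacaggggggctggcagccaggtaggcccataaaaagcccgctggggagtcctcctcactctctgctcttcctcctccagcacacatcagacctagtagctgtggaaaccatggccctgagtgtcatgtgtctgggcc
Il1r2, chr1:40085843-40086142, strand +: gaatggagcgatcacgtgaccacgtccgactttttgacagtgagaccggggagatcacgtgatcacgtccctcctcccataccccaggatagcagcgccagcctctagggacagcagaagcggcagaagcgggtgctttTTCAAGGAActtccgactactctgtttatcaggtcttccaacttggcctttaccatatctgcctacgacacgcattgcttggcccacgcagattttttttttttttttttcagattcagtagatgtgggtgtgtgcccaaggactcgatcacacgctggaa
Socs3, chr11:117969317-117969616, strand -: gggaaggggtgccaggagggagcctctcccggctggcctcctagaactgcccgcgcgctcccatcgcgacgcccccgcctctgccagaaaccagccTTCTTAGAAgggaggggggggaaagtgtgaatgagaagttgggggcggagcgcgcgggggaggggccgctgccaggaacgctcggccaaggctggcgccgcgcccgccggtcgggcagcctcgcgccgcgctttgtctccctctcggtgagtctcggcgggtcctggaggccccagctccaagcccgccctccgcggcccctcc
Serpina3n, chr12:104406458-104406757, strand +: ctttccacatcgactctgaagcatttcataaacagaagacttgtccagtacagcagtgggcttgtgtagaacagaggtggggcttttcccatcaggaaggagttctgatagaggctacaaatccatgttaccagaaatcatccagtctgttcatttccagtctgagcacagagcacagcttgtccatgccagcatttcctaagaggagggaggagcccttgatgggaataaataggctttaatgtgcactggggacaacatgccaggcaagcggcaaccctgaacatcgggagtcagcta

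The motif began 99 bases before the start in Saa3, where it lies on the minus strand relative to the gene, 216 before it in Lcn2, 111 in Il1r2 and 154 in Socs3. The windows of Saa3, Il1r2, Socs3 and Osmr and some of those of Il1rn lie inside the annotated span of their genes, so starts of these genes further upstream may lie outside the windows searched. A match is a description of the letters and not a bound site, and the windows of Serpina3n, Bcl3, Osmr, Il1rn and Stat3 held neither motif in these letters.

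The intact spleens are given in sets by their replicate numbers. Spleens of days 1 and 7 were compared with intact spleens 1 to 3, and those of day 3 with intact spleens 4 to 6. Intact spleens 4 to 6 differed from intact spleens 1 to 3 in 0.59% of all features at an adjusted p under 0.05, among them 0 of the 10 genes. Intact spleens 1 and 2 also stood apart in transcripts of pancreatic acinar cells, with mean log2 levels of 18 such markers of 15.32 and 13.11, against 3.69 to 6.30 in the other intact spleens. The arrays correlated with each other at 0.944 to 0.987 over all features, and their medians lay between 4.74 and 4.89 on the log2 scale. The B and T cell markers measured were above these medians on all arrays. Of 3 listed genes of spleen stroma 1 lay below the median on each array. All levels below are deposited log2 expression values, which end at 19.93, and all differences are log2 differences with the standard error of the model. A unit difference is a doubling only if the scale is a plain log2, which the sources used here do not state.

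On day 1 after resection all 10 genes had a higher mean than intact spleens 1 to 3, with a median log2 difference of 0.87, against 0.00 over all features. On replicates 1, 2 and 3 of that day 7, 10 and 6 of the genes lay above the intact mean. The differences of Socs3 and Il1rn were only 0.02 and 0.09. Serpina3n stood out. Its difference was the fifth by unadjusted p among all features, but 0 of the 10 genes passed an adjusted p under 0.05 in limma, against 0% of all features. At an unadjusted p under 0.05 there were 1 of the 10 and 1577 of all features. A second rule asked for an unadjusted p under 0.05 and a fold of 2 or more, the default of the software used for the study. By this fold rule 1 gene, Serpina3n, was higher and 0 lower, against 1.44% and 0.63% of all features. The 3 arrays of day 1 lay above all 3 intact arrays for 2 genes, Serpina3n and Saa3, against 7.89% of all features. On day 3, 9 genes had a higher and 1 a lower mean than intact spleens 4 to 6, with a median of 0.50, 0 passed either rule or an unadjusted p under 0.05, which 2007 features did, and the shares of all features were 0.00901% by adjusted p, 1.56% higher and 0.473% lower by fold. Serpina3n and Il1r2 were the 2 genes without overlap on day 3, against 6.78% of all features. On day 7, 9 were higher and 1 lower than intact spleens 1 to 3, with a median of 0.51. By adjusted p 0 genes passed, against 0% of all features, at an unadjusted p under 0.05 there were 1 gene and 2300 features, and 1 gene, Hp, passed the fold rule, against 2.19% of features higher and 1.28% lower. Saa3 was the 1 gene without overlap, against 7.93% of all features. With 3 arrays against 3, an exact permutation test of a single gene cannot give a p under 0.1, and the p-values measure the spread between these arrays only.

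**Figure D1:**
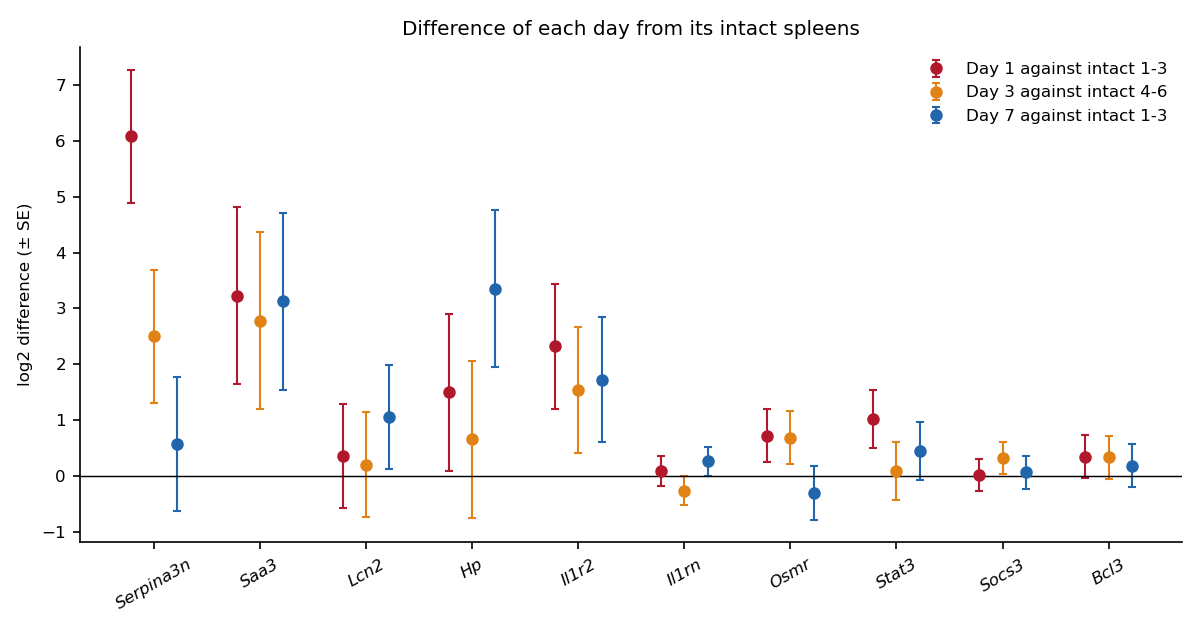
Log2 difference (y axis, ± SE of the model) of the 10 genes (x axis) on days 1, 3 and 7 from the intact spleens of that day, 3 arrays a group. The differences of Serpina3n are 6.09, 2.50 and 0.57 in the order of the days, those of Hp are largest on day 7 with 3.35, and those of Socs3, Il1rn and Bcl3 stay within 0.35 of 0.

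The product of Serpina3n is an acute phase serpin that blocks serine proteases outside the cell and is related to human antichymotrypsin. Its levels were 10.80, 16.01 and 12.57 on day 1, 11.73, 8.61 and 7.41 on day 3, and 6.78, 9.62 and 6.45 on day 7, against 7.04, 7.04 and 7.05 in intact spleens 1 to 3 and 6.17, 7.08 and 7.00 in intact spleens 4 to 6. All arrays of days 1 and 3 lay above their intact spleens, while on day 7 replicates 1 and 3 lay below and replicate 2 above them. The difference was 6.09 ± 1.19 on day 1 (unadjusted p = 1.46e-04, limma adjusted p = 0.582), 2.50 ± 1.19 on day 3 (limma adjusted p = 0.568) and 0.57 ± 1.19 on day 7 (limma adjusted p = 0.923). Without day 1 replicate 2 the day 1 difference was 4.64 and without replicate 1 it was 7.25. Without day 3 replicate 1 the day 3 difference was 1.26, and without day 7 replicate 2 that of day 7 was -0.43. Against intact spleens 4 to 6 the day 1 difference was 6.37 with an adjusted p of 0.0168 in limma, the 1 setting in which any of the 10 genes passed. The adjusted p of this difference ran from 0.0168 to 1 over all settings. The 3 values of intact spleens 1 to 3 lie within 0.02 of each other, and the 4 other groups have SDs from 0.50 to 2.65.

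Day 7 was also set directly against day 1, since both share their intact spleens. In this comparison 13 of all features passed an adjusted p under 0.05 (0.0585%) and 0 of the 10 genes. By the fold rule 2 genes were lower on day 7 and 0 higher, against 3.16% and 2.23% of all features. Serpina3n was lower on day 7 than on day 1 by a difference of -5.51 ± 1.19 (limma adjusted p = 0.0763), with all 3 arrays of day 7 below all 3 of day 1, as for 9.68% of all features. Osmr was lower by -1.03 ± 0.48 (limma adjusted p = 0.390), with overlap, and did not pass without day 1 replicate 1 or 2 or day 7 replicate 1 or 3. Lcn2 was the 1 gene whose 3 arrays of day 7 lay above those of day 1, as for 8.05% of all features. Between day 3 and day 1 the differences from intact spleens were compared as an interaction, and that of Serpina3n was smaller on day 3 by -3.59 ± 1.69 (limma adjusted p = 0.940). In limma 0 features passed an adjusted p under 0.05 in this comparison (0%) or in that of day 7 with day 3 (0%), and 1128 and 1297 passed an unadjusted p under 0.05.

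Serpina3n lies in a cluster of closely related serpin genes on chromosome 12, and whether its probes also bind their transcripts was not tested. Of these, Serpina3i had levels of 7.55, 8.15 and 7.46 on day 1, against 7.20, 7.03 and 7.63 in intact spleens 1 to 3. Serpina3f had 5.91, 5.72 and 6.82 on day 1, against 5.77, 6.40 and 6.50 in these intact spleens. Both overlapped between the groups. These genes were picked after their values were seen.

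Saa3 encodes a serum amyloid A that in mice is made largely outside the liver, by macrophages and other cells. Its levels were 6.42, 13.07 and 7.73 on day 1, 12.19, 6.88 and 5.86 on day 3, and 7.87, 10.93 and 8.12 on day 7, against 5.26, 6.25 and 6.02 in intact spleens 1 to 3 and 5.31, 5.87 and 5.40 in intact spleens 4 to 6. One array of each day stood far above the other two, day 1 replicate 2, day 3 replicate 1 and day 7 replicate 2, and on day 3 replicate 3 lay within the range of the intact spleens. The differences were 3.23 ± 1.59 on day 1, 2.78 ± 1.59 on day 3 and 3.13 ± 1.59 on day 7, with adjusted p-values of 0.722, 0.655 and 0.526 in limma. Without the highest array they were 1.23 on day 1, 0.84 on day 3 and 2.15 on day 7. The serum amyloid genes of the liver were low: Saa2 lay below the array median on all 15 arrays, and Saa1 had 5.02, 5.40 and 5.11 on day 1, against 4.54, 4.90 and 5.17 in intact spleens 1 to 3.

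Lcn2 encodes lipocalin 2, a protein of neutrophil granules that binds bacterial siderophores and that many cells secrete in inflammation. Its levels were 18.76, 19.28 and 19.24 on day 1, 19.93, 17.40 and 15.17 on day 3, and 19.93, 19.93 and 19.50 on day 7, against 19.67, 17.56 and 18.97 in intact spleens 1 to 3 and 17.19, 18.85 and 15.84 in intact spleens 4 to 6. The groups overlapped in all 3 comparisons with intact spleens. On 3 arrays, day 3 replicate 1 and day 7 replicates 1 and 2, the value was at the upper end of the scale, and a level above it would not have been seen. The differences were 0.36 ± 0.94 on day 1, 0.21 ± 0.94 on day 3 and 1.05 ± 0.94 on day 7, with adjusted p-values of 0.966, 0.970 and 0.766 in limma. Without day 3 replicate 1 the day 3 difference was -1.01, and against intact spleens 1 to 3 it was -1.23.

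Hp encodes haptoglobin, which binds free hemoglobin and which granulocytes store besides its production in the liver. Its levels were 11.35, 15.41 and 13.38 on day 1, 14.39, 11.38 and 8.51 on day 3, and 14.34, 17.30 and 14.06 on day 7, against 14.13, 10.55 and 10.97 in intact spleens 1 to 3 and 10.27, 12.14 and 9.90 in intact spleens 4 to 6. The 3 arrays of day 7 were high, but replicate 3 lay just below intact spleen 1, the highest of the 6 intact spleens. The difference was 1.50 ± 1.41 on day 1, 0.66 ± 1.41 on day 3 and 3.35 ± 1.41 on day 7 (limma adjusted p = 0.861, 0.936 and 0.419, with an unadjusted p of 0.0313 on day 7). Without day 7 replicate 2 the day 7 difference was 2.32. It did not pass the fold rule without that array, without intact spleen 2 or without intact spleen 3, and without day 3 replicate 1 the day 3 difference was -0.82.

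**Figure D2:**
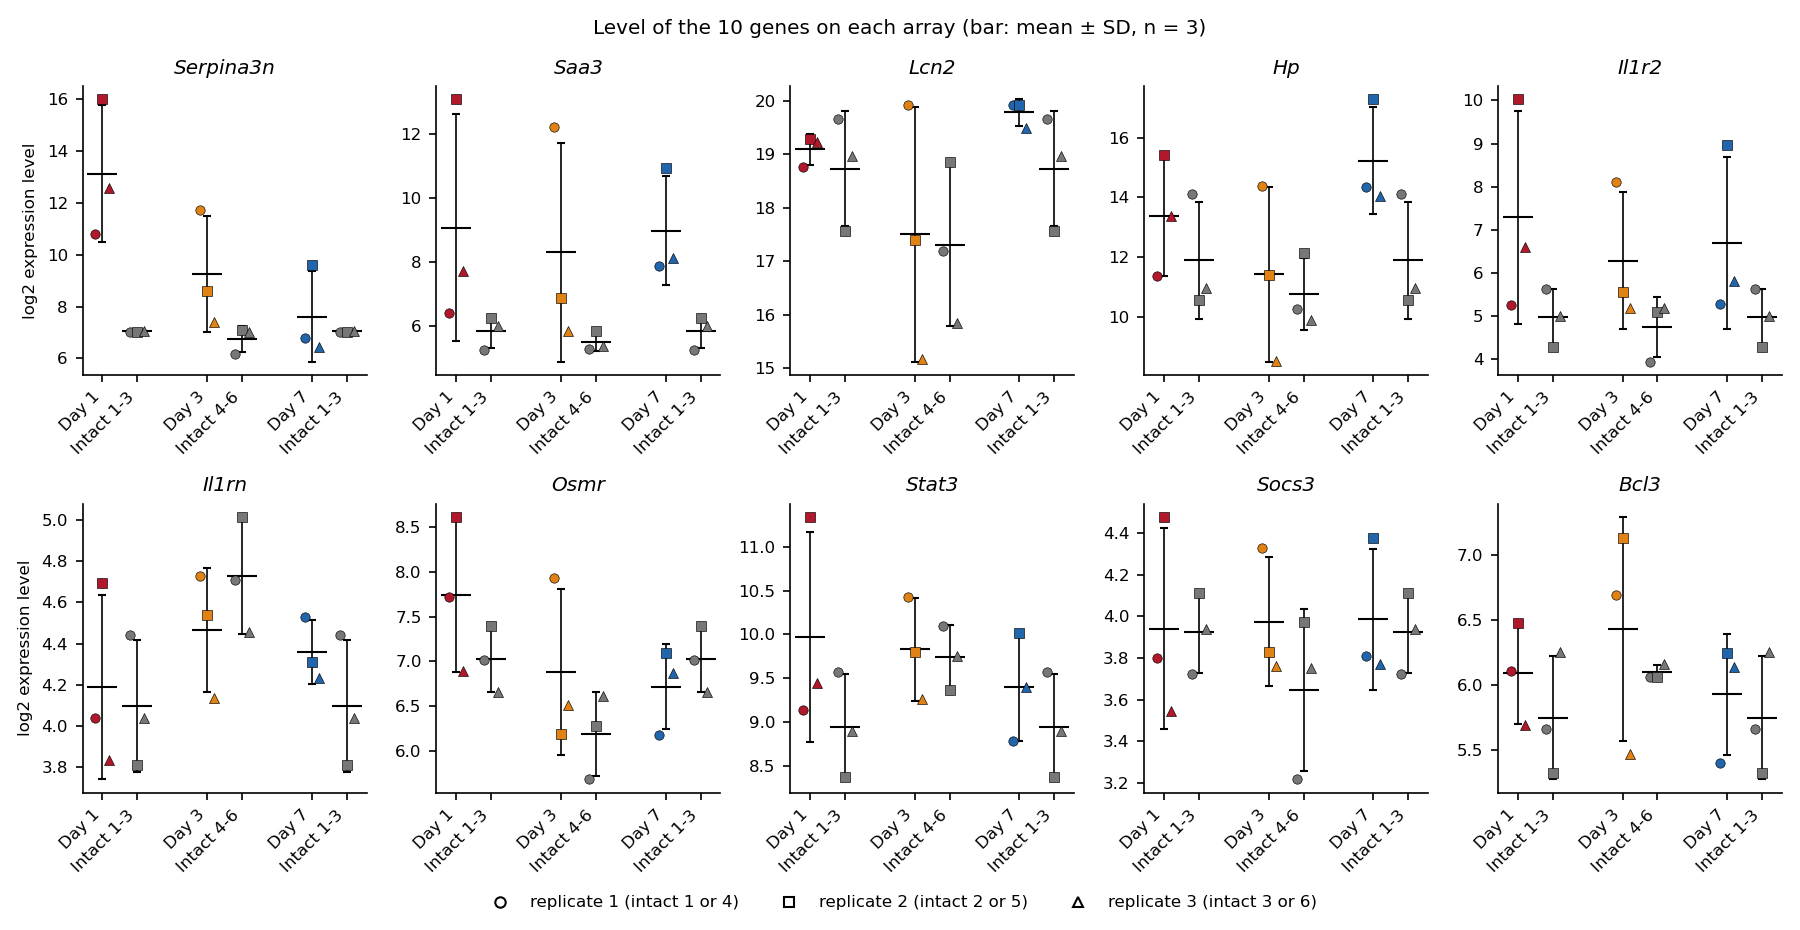
Log2 expression level (y axis, a scale of its own for each gene) of the 10 genes on each of the 15 arrays, with each day left of the intact spleens it was compared with; intact spleens 1 to 3 appear beside day 1 and again beside day 7. Points are arrays and bars the mean ± SD of 3. Day 1 replicate 2 (square) is the highest of day 1 for all 10 genes, with 16.01 for Serpina3n and 13.07 for Saa3.

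Among the receptor genes, Il1r2 encodes the decoy receptor of interleukin 1, which binds the cytokine without signaling. Its levels were 5.24, 10.03 and 6.59 on day 1, 8.10, 5.55 and 5.19 on day 3, and 5.28, 8.96 and 5.82 on day 7, against 5.62, 4.28 and 4.99 in intact spleens 1 to 3 and 3.94, 5.09 and 5.18 in intact spleens 4 to 6. As for Saa3, day 1 replicate 2, day 3 replicate 1 and day 7 replicate 2 were far above the others, and on day 3 replicate 3 exceeded the highest intact spleen by less than 0.01. The differences were 2.32 ± 1.12 on day 1, 1.54 ± 1.12 on day 3 and 1.72 ± 1.12 on day 7, with adjusted p-values of 0.714, 0.759 and 0.642 in limma. Without the highest array they were 0.95 on day 1, 0.63 on day 3 and 0.59 on day 7.

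Osmr encodes the receptor chain that binds oncostatin M together with gp130 and that stromal cells carry. It had levels of 7.72, 8.61 and 6.89 on day 1, 7.93, 6.19 and 6.51 on day 3, and 6.18, 7.10 and 6.88 on day 7, against 7.02, 7.39 and 6.66 in intact spleens 1 to 3 and 5.68, 6.27 and 6.62 in intact spleens 4 to 6. Days and intact spleens overlapped throughout. The differences were 0.72 ± 0.48 on day 1, 0.69 ± 0.48 on day 3 and -0.30 ± 0.48 on day 7, with adjusted p-values of 0.796, 0.735 and 0.889 in limma.

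Il1rn encodes the interleukin 1 receptor antagonist. It was dim, below the array median on 14 of 15 arrays, with levels of 4.04, 4.69 and 3.83 on day 1, 4.73, 4.54 and 4.14 on day 3, and 4.53, 4.31 and 4.23 on day 7, against 4.44, 3.81 and 4.04 in intact spleens 1 to 3 and 4.71, 5.02 and 4.46 in intact spleens 4 to 6. The days did not stand apart from their intact spleens, with differences of 0.09 ± 0.27, -0.26 ± 0.27 and 0.26 ± 0.27 in the order of the days and adjusted p-values of 0.971, 0.839 and 0.806 in limma. Its 3 intact spleens 4 to 6 lay above intact spleens 1 to 3, by 0.63 ± 0.27 (limma adjusted p = 0.369). Osmr was the 1 gene whose intact spleens 4 to 6 all lay below them, by -0.83 ± 0.48 (limma adjusted p = 0.543). The share of all features without overlap was not worked out between these sets, so these counts have no background. In the comparisons of days the shares given ran from 6.78% to 9.68% in 1 direction.

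Stat3 itself, which is among the targets of its own product, had levels of 9.14, 11.34 and 9.44 on day 1, 10.43, 9.80 and 9.26 on day 3, and 8.79, 10.02 and 9.40 on day 7, against 9.58, 8.37 and 8.90 in intact spleens 1 to 3 and 10.10, 9.36 and 9.75 in intact spleens 4 to 6. Day 1 replicate 2 was the highest of the 15 arrays, and all days overlapped with their intact spleens. The difference was 1.02 ± 0.52 on day 1 (limma adjusted p = 0.729), 0.09 ± 0.52 on day 3 (limma adjusted p = 0.976) and 0.45 ± 0.52 on day 7 (limma adjusted p = 0.832). Arrays of this kind measure the transcript and not the phosphorylation through which STAT3 is activated.

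Socs3, the inhibitor of gp130 receptors and a direct target of STAT3, was below the array median on all 15 arrays. Its levels were 3.80, 4.48 and 3.54 on day 1, 4.33, 3.83 and 3.76 on day 3, and 3.81, 4.38 and 3.77 on day 7, against 3.72, 4.11 and 3.94 in intact spleens 1 to 3 and 3.22, 3.97 and 3.75 in intact spleens 4 to 6. All groups overlapped, with differences of 0.02 ± 0.29, 0.33 ± 0.29 and 0.06 ± 0.29 on days 1, 3 and 7 and adjusted p-values of 0.998, 0.811 and 0.970 in limma. At so low a signal a difference may not be detectable on this array.

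Bcl3, an IkB protein that works in the nucleus with NF-kB subunits, had levels of 6.11, 6.48 and 5.70 on day 1, 6.70, 7.13 and 5.48 on day 3, and 5.40, 6.25 and 6.14 on day 7, against 5.67, 5.33 and 6.26 in intact spleens 1 to 3 and 6.07, 6.07 and 6.17 in intact spleens 4 to 6. The groups overlapped, with differences of 0.35 ± 0.38, 0.33 ± 0.38 and 0.18 ± 0.38 on days 1, 3 and 7 and adjusted p-values of 0.892, 0.863 and 0.924 in limma.

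The arrays of a day differed widely among themselves, and they did so for most of the genes together. Day 1 replicate 2 had the highest level of that day for 10 of the 10 genes, against 35.7% of all features. Day 3 replicate 1 was highest for 9 of 10, all but Bcl3, against 29% of all features, and day 7 replicate 2 for 8 of 10, all but Lcn2 and Il1rn, against 36.1%. Relative to the mean of their intact spleens, the median of the 10 genes was 0.23, 1.99 and 0.50 on the arrays of day 1, 2.19, 0.40 and -0.18 on those of day 3, and 0.10, 1.13 and 0.42 on those of day 7. The median of all features was within 0.04 of 0 on each of these arrays. A level at least 1 above the intact mean was reached by 6 genes on each of day 1 replicate 2, day 3 replicate 1 and day 7 replicate 2. The shares of all features there were 5.53%, 4.85% and 6.21%. Replicates 1 and 3 of day 1 had 1 and 4 such genes, against 2.98% and 2.11% of all features. On day 3 replicates 2 and 3 had 3 and 0, against 5.93% and 4.9%. On day 7 replicates 1 and 3 had 3 and 2, against 4.5% and 2.97%.

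**Figure D3:**
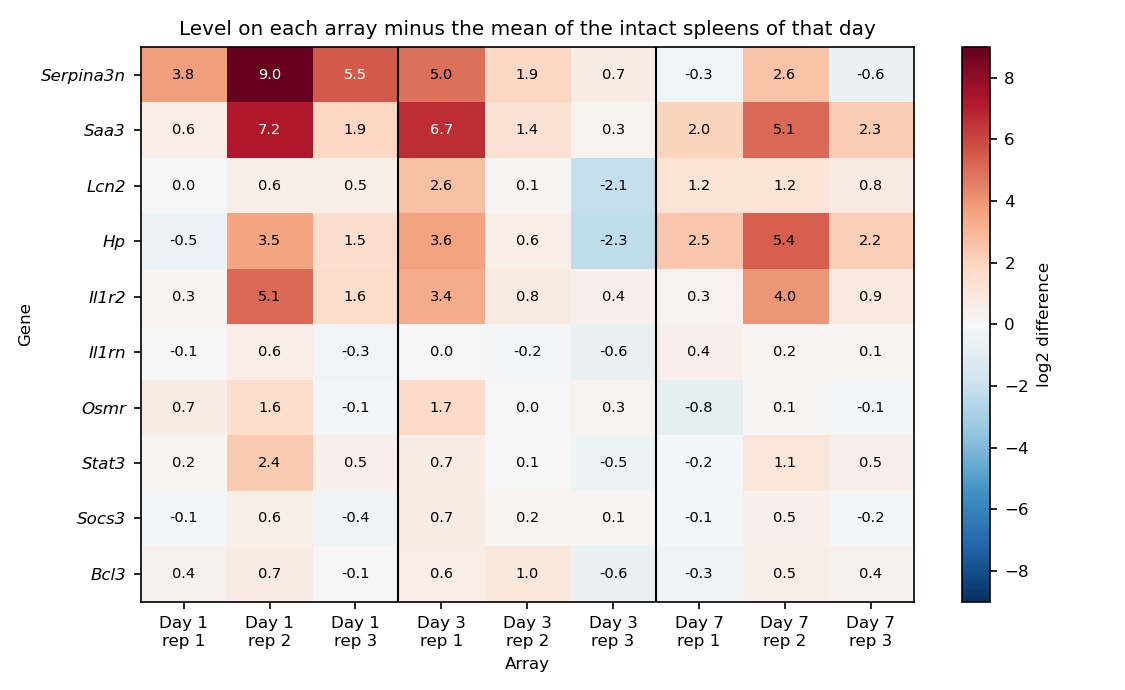
Level of the 10 genes (rows) on each array after resection (columns) minus the mean of the 3 intact spleens of that day, as log2 differences written in the cells and shown by color. One array of each day carries most of the high values, with medians over the 10 genes of 1.99 on day 1 replicate 2, 2.19 on day 3 replicate 1 and 1.13 on day 7 replicate 2.

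Markers of granulocytes varied with some of the genes. The mean log2 level of 25 neutrophil markers was 9.81, 11.13 and 10.82 on day 1, 11.35, 9.21 and 7.71 on day 3, and 11.23, 13.54 and 11.02 on day 7, against 11.08, 9.25 and 9.51 in intact spleens 1 to 3 and 8.58, 9.73 and 8.33 in intact spleens 4 to 6. The array with the highest mean within each of the 5 groups was also that with the highest Hp. On day 7 all 25 markers were higher than in intact spleens 1 to 3, with a median difference of 2.24, and 11 passed the fold rule, among them Csf3r, the receptor of the granulocyte growth factor, by 2.10 ± 0.50, and the granule protease genes Elane by 2.92 ± 0.75 and Prtn3 by 3.13 ± 0.82. On day 1 and on day 3 1 marker each passed it, Stfa2 and Retnlg, and the median differences were 0.46 and 0.47. Markers of monocytes and macrophages had medians of 1.06 on day 1, 0.87 on day 3 and 0.17 on day 7 over 17 genes. By the fold rule 6, 3 and 2 were higher and 1, 1 and 0 lower. In intact spleens 4 to 6, 14 of these 17 were lower and 3 higher than in intact spleens 1 to 3, with a median of -0.90. Of the 25 neutrophil markers 19 were lower and 6 higher there, with a median of -1.05. Against intact spleens 1 to 3 the day 3 differences of C1qc, Marco and Cd5l were 0.25, 0.86 and 2.86. They replace 1.51, 1.99 and 3.05. Against intact spleens 4 to 6 that of Ly6c2 on day 1 was 0.15, in place of -1.22. Of 9 endothelial markers 8 were higher on day 1, with a median difference of 0.51, and Cdh5 and Stab2 passed the fold rule. Their mean was 7.47, 7.71 and 7.83 on day 1, against 7.16, 7.22 and 7.29 in intact spleens 1 to 3, all 3 above them, and on day 7 all 9 were lower, with 0 past the rule. On day 3 the collagen genes Col1a1, Col1a2 and Col3a1 and Dcn were the 4 of 10 fibroblast and reticular markers that passed it, all higher. Of the 10, 7 were higher and 3 lower, with a median of 0.66. Against intact spleens 1 to 3 the day 3 differences were 0.31 for Dcn and 0.14 for Col1a2, in place of 2.96 and 1.15. Those of Col1a1 and Col3a1 were 1.48 and 1.68. On day 7 the 7 B cell and 7 T cell markers measured were all lower than in intact spleens 1 to 3, with medians of -1.36 and -1.16 and 4 of each past the rule. The 6 erythroid markers measured were all lower on day 1, with a median of -1.10 and 2 past the rule, and on day 3, with a median of -0.67 and 0 past it. In bulk tissue more cells of a type and more RNA per cell cannot be told apart, and the part of these cells in the levels of the 10 genes was not tested.

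Markers of hepatocytes were near background, with means of 11 genes between 3.46 and 4.11 on all arrays. Albumin had 4.78, 4.46 and 5.07 on day 1, against 5.69, 5.38 and 5.10 in intact spleens 1 to 3. On day 3 it had 6.64, 5.96 and 3.87, against 4.17, 4.12 and 4.87 in intact spleens 4 to 6, and was the 1 hepatocyte marker past the fold rule. Its day 3 difference of 1.10 was 0.10 when taken against intact spleens 1 to 3. The mean of 11 adipocyte markers was 4.16, 6.11 and 4.16 on day 1, against 4.31, 5.72 and 4.46 in intact spleens 1 to 3, so that day 1 replicate 2, on which all 10 genes were highest, and intact spleen 2 stood above the others, and its part in these levels was not tested. Of this list, Adipoq had 2.96, 5.90 and 3.24 on day 1, against 3.02, 7.03 and 3.69 in intact spleens 1 to 3. Plin1 did not share this pattern, with 2.76, 3.02 and 2.83 against 3.30, 3.30 and 2.94, all below the array median. On day 1, 5 of the 11 adipocyte markers were higher and 6 lower. The means of 10 mesothelial markers were 5.85, 5.21 and 4.96 on day 3, against 3.96, 4.13 and 4.18 in intact spleens 4 to 6, all 3 above them, with day 3 replicate 1 the highest, and their part was not tested either. Prg4 and Gpm6a of this list were the 2 features that passed an adjusted p under 0.05 on day 3.

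**Figure D4:**
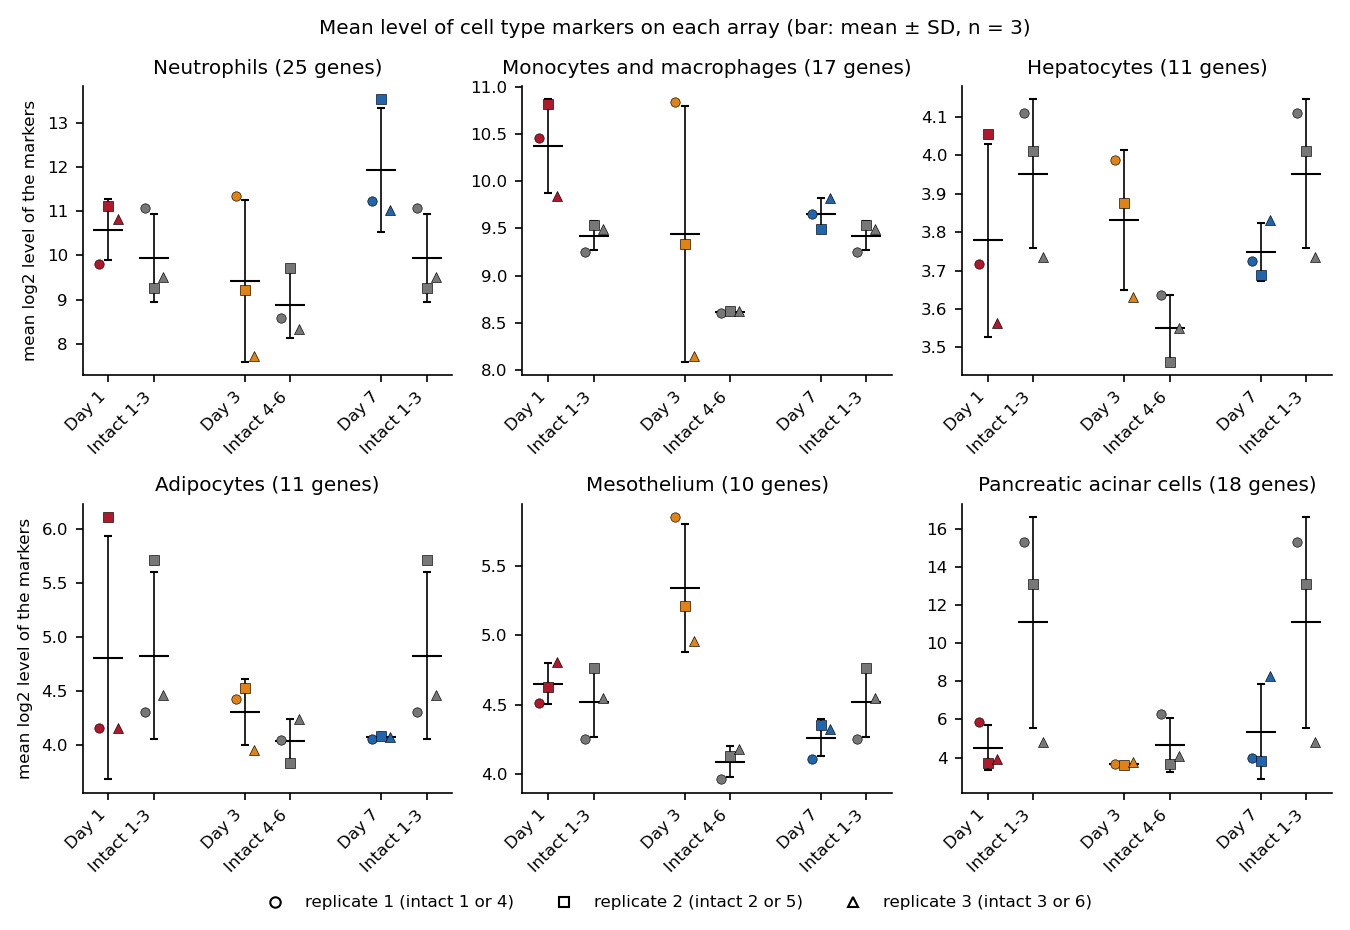
Mean log2 level of the markers of 6 cell types (y axis, a scale of its own for each list) on each of the 15 arrays, with each day left of its intact spleens; points are arrays and bars the mean ± SD of 3. The acinar means of 15.32 and 13.11 are those of intact spleens 1 and 2, and the highest neutrophil mean, 13.54, is that of day 7 replicate 2.

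The acinar RNA of intact spleens 1 and 2 touches the comparisons of days 1 and 7. Of the arrays after resection, day 7 replicate 3 had a mean of the 18 acinar markers of 8.26, and the others 3.61 to 5.88. The mean of intact spleen 3 was 4.83, with 12 of the 18 below the array median but Amy2a5 at 11.32. Intact spleen 3 was also taken as the 1 intact spleen, a choice made after seeing the data and given here as differences only. The day 1 differences were then 6.07 for Serpina3n, 3.05 for Saa3, 2.41 for Hp, 2.30 for Il1r2 and 1.08 for Stat3, and the day 7 differences 2.95 for Saa3 and 4.27 for Hp. All of these had the same sign as with 3 intact spleens. The directions of Bcl3 on days 1 and 7 and of Osmr on day 7 were turned in this setting.

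The genes with the most similar pattern over the 15 arrays, after subtraction of the mean of the intact set, differed among the 10. For Serpina3n they were Pdgfrb, a receptor of pericytes and reticular cells, with a Pearson r of 0.94, Cyp1b1 with 0.93 and Cmklr1 with 0.93. Pdgfrb had levels of 9.24, 10.26 and 9.26 on day 1, against 7.81, 7.71 and 8.07 in intact spleens 1 to 3, all 3 above them, by 1.72 ± 0.37. The 10 measured markers of fibroblasts and reticular cells, of which it is one, did not move one way on day 1, with 6 higher, 4 lower and a median difference of 0.15, and of the chemokine genes among them Ccl21a was higher by 1.64 ± 0.70 and Ccl19 lower by -1.45 ± 0.57. Saa3 was most like Rnd1, the myeloid receptor gene Cd300lf and Il1r2, each with 0.93, and Il1r2 most like Saa3, the chemokine receptor gene Ccr1 and Csta2, with 0.93, 0.91 and 0.91.

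Lcn2 was most like the neutrophil genes S100a9, Ngp and S100a8, with 0.95, 0.94 and 0.93. Ngp and S100a8, like Lcn2, read 19.93, the upper end of the scale, on some arrays, and the part of this limit in these r values was not tested. Hp was most like Mrgpra2a, Lilr4b and the neutrophil gene Cd177, with 0.96, 0.95 and 0.95. Mrgpra2a, Lilr4b and Csta2 belong to families of near-identical genes, so their identity is uncertain. Stat3 was most like Emb, 4930486L24Rik and the arginase gene Arg2, with 0.94, 0.93 and 0.91. The genes nearest to Socs3 were Ocrl, Dgcr6 and 9030612E09Rik (0.91, 0.90 and 0.86), those nearest to Bcl3 were Antxr2, Plcl1 and G3bp2 (each 0.89), those nearest to Osmr Gfpt2, Lamc3 and Maml1 (0.90, 0.89 and 0.88), and those nearest to Il1rn Gm6902, Vmn1r85 and Taar7e (0.87, 0.85 and 0.81). These are descriptions over arrays that share their groups and intact means. Each set of 3 holds the highest r among all features with 1 symbol over 15 arrays, where high values can also arise by chance. Socs3 and Il1rn were below the array median on 15 and 14 arrays, and at so low a signal their nearest genes are uncertain. Among the 10 genes themselves, the 45 pairs had r from 0.05 to 0.93 with a median of 0.52. By Pearson r Saa3 and Il1r2 were the most alike, with 0.93, but their Spearman rho was 0.69, and by rho Lcn2 and Hp were the most alike, with 0.85.

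The wider pathway was read from lists of other genes. Of 13 cytokines that act through STAT3, 12 were measured and 0 passed the fold rule in any comparison with intact spleens, and Il6 and Osm were below the array median on all 15 arrays. Of 13 measured receptors and kinases, the gp130 gene Il6st had 12.04, 12.67 and 11.49 on day 1, against 10.06, 10.08 and 11.05 in intact spleens 1 to 3, all 3 above them, by 1.67 ± 0.47, and the leptin receptor gene Lepr was higher by 1.63 ± 0.55. Lepr had 6.50, 8.92 and 7.28 on day 1, against 5.46, 6.00 and 6.35 in intact spleens 1 to 3, but intact spleens 4 to 6 had 7.47, 7.76 and 8.02, and against these the difference was -0.19. Il6st and Lepr were the 2 of this list past the fold rule on day 1, 0 passed on day 3, and on day 7 Csf3r was the 1. Of 9 inhibitors of the pathway, 1 passed on day 1, the phosphatase gene Ptpn1, with 12.70, 13.66 and 12.21 on day 1, against 11.63, 10.99 and 11.33 in intact spleens 1 to 3, and 0 on days 3 and 7.

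Of 20 other STAT3 targets 5 passed the fold rule on day 1, all higher, with a list median of 0.59. They were the protease inhibitor gene Timp1 by 1.34 ± 0.37, Hif1a by 1.64 ± 0.53, the kinase gene Pim1 by 1.19 ± 0.44, the growth regulator Myc by 1.01 ± 0.31 and Ier3 by 1.20 ± 0.51. Timp1 and Ier3 were dim, below the array median on 14 and 12 of 15 arrays. Timp1 had 3.66 to 5.67 on day 1, against 3.26 to 3.33 in intact spleens 1 to 3, and day 1 replicate 2 was the 1 array on which it lay above the median, so the size of its difference is uncertain. On day 3 the iron reductase gene Steap4 was the 1 that passed, by 1.71 ± 0.59, and on day 7 Pim1 and Myc were the 2, by 1.47 ± 0.44 and 1.19 ± 0.31. The medians of this list were 0.36 on day 3 and 0.23 on day 7. None of these genes passed an adjusted p under 0.05.

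Of 28 measured acute phase proteins of the liver 2 passed the fold rule on day 1, 1 on day 3 and 1 on day 7, with list medians of 0.11, 0.07 and -0.01. On each array 14 to 19 of the 28 lay below the array median. Crp, Apcs and Orm2 did so on all 15 arrays, while Orm1 was above it on 13 and Cp, Lbp and Lrg1 on all 15. Serpina1a and Serpina1b, which encode forms of alpha-1-antitrypsin, were lower in intact spleens 4 to 6 than in intact spleens 1 to 3, by -4.68 ± 0.39 and -4.54 ± 0.27 (limma adjusted p = 2.35e-05 and 3.89e-07). The copper carrier Cp had 12.35, 13.26 and 12.78 on day 1, against 10.80, 10.28 and 11.28 in intact spleens 1 to 3, all 3 above them, by 2.01 ± 0.61. Lrg1 was higher by 1.99 ± 0.92 on day 1, the complement inhibitor gene Serping1 by 1.18 ± 0.55 on day 3, and the lipopolysaccharide binding protein gene Lbp by 2.01 ± 0.67 on day 7. Lbp had 8.21, 10.59 and 8.51 on day 7, against 7.97, 6.39 and 6.91 in intact spleens 1 to 3.

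Of 18 measured genes of the interleukin 1 axis 4 passed the fold rule on day 1, all higher, with a list median of 0.71. They were the signaling receptor gene Il1r1 by 1.06 ± 0.40, Il18 by 1.36 ± 0.59, its binding protein Il18bp by 1.02 ± 0.41 and the inhibitory kinase gene Irak3 by 1.28 ± 0.56. Il18 was the 1 that passed on day 3, by 1.90 ± 0.59, and Il33 the 1 on day 7, lower by -1.02 ± 0.33. Among 10 measured NF-kB subunits and inhibitors the feedback inhibitors Tnfaip3 and Nfkbia were the 2 that passed on day 1, higher by 1.71 ± 0.59 and 1.41 ± 0.51. Here 0 passed on day 3, and on day 7 the subunit gene Rel was the 1, lower by -1.22 ± 0.55. In all of these lists 0 genes passed an adjusted p under 0.05 on days 1, 3 and 7, and the lists were read against the shares of all features given above. Against the other set of intact spleens Lepr was the 1 gene past the fold rule in these lists whose sign turned. The differences of some others were smaller by over 1.5 times there, with 0.96 for Hif1a, 0.76 for Tnfaip3 and 0.67 for Il18bp on day 1, 0.32 for Serping1, 0.75 for Steap4 and 0.80 for Il18 on day 3 and -0.33 for Il33 on day 7.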

How the data were processed

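The authors hybridised biotin-labelled RNA of frozen spleens to Clariom S mouse arrays and, per the labels and the methods, made the values with RMA in the Transcriptome Analysis Console at default settings, that is, background correction, quantile normalization and summary of the probes of a feature. The deposited log2 values were used as they are. They run from 1.49 to 19.93, and a further change of the scale, which would alter the size of differences, is not stated. Arrays have no read depth, so their number sets the precision.

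Of 28846 features, 22206 were tested after the removal of 6640 array controls, 19572 of them with 1 gene symbol in the platform annotation. The other 2634 had none or several. Each of the 10 genes had 1 feature. A linear model of 5 groups (days 1, 3 and 7, intact spleens 1 to 3 and 4 to 6) was fitted to 15 arrays with lmFit and eBayes in limma 3.58.1 (R 4.3.3), with Benjamini-Hochberg adjustment over all features of a comparison. A feature was called at an adjusted p under 0.05, and a second rule took an unadjusted p under 0.05 and a fold of 2 or more. The steps were tested on simulated data. The labels call arrays of a group biological replicates. Named genes are the 10 genes, at most 4 genes with the smallest p in each list and the 3 genes most like each. Ier3 was named besides these because it passed the fold rule on day 1. A few others were picked after their values were seen (Serpina3 and liver genes, marker genes). The 10 genes, the lists and the tests were chosen with earlier results of these data known. Alternatives were other intact spleens, samples in the fit, filters, priors and normalizations, a replicate block, and each array left out in turn. Genes of the lists that matched no feature with 1 symbol, such as C3 and Ly6g, were not analysed here.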

Additional observations from a re-analysis of the deposited data

Results flagged for a closer look

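Among the 6 intact spleens, the Serpina3n level of intact spleen 4 was 6.17 on the log2 scale and lay apart from those of the other 5, which ran from 7.00 to 7.08. It was singled out because its gap to the nearest of the others exceeded the 95% critical value of Dixon's test, which chance passes in about 1 in 20 groups. The other 9 genes had no such array among the intact spleens. The array counts among the intact spleens of day 3.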

How the results depend on the processing

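Over 24 alternative settings the differences of the 10 genes gave 454 values, of which 418 kept their direction and side of the threshold, 1 passed it and 35 changed sign. Saa3 and Il1r2 on all days, Serpina3n on days 1 and 3, Hp on days 1 and 7, Osmr and Stat3 on day 1, Socs3 on day 3, Lcn2 on day 7, and Serpina3n and Osmr in day 7 against day 1 had the same sign in all settings run. None of the differences whose sign changed had passed either rule. The cause of these changes was not tested. Each gene had 1 feature, so a choice between features gave no value.

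With the fold rule in place of the adjusted p, 460 features were called on day 1, 451 on day 3, 771 on day 7 and 1197 in day 7 against day 1, in place of 0, 2, 0 and 13. With all 6 intact spleens 6 features were called on day 3 and 207 on day 7, and 4 genes passed the fold rule on day 1, 1 on day 3 and 2 on day 7. The share of all features past the fold rule was worked out for the main fit only. The counts of genes past this rule in this and all other settings below therefore have no background to be judged against. Il1rn then had -0.22 on day 1, 0.055 on day 3 and -0.054 on day 7, Lcn2 -0.51 on day 3 and Osmr 0.11 on day 7. Against the other set of intact spleens 328, 207 and 1298 features were called on days 1, 3 and 7. Serpina3n was the 1 gene called, on day 1, and 4 genes on day 1 (with Saa3, Il1r2 and Osmr) and 3 on day 7 (Saa3, Lcn2 and Hp) passed the fold rule. The values that changed sign here were -0.0041 for Bcl3 and -0.54 for Il1rn on day 1, -1.23 for Lcn2, -0.46 for Hp, -0.15 for Osmr and 0.37 for Il1rn on day 3, and -0.17 for Bcl3, 0.53 for Osmr, -0.37 for Il1rn and -0.34 for Stat3 on day 7. Intact spleen 3 as the 1 intact spleen was a choice made after seeing the data, in which this lone spleen is assumed to vary like the other groups. The values that changed sign there were -0.16 for Bcl3 on day 1 and -0.33 for Bcl3 and 0.059 for Osmr on day 7.

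In fits of the compared groups alone 0 features were called on day 3 and 2 in day 7 against day 1, and 1 gene passed the fold rule on day 3, 2 on day 7 and 1 in day 7 against day 1. Without the dimmest 25% of features 1 gene passed it in day 7 against day 1. With a trended and robust prior 0 genes passed it on day 7, and 59 features were called in day 7 against day 1. After median centring 2 genes passed it on day 1 and 1 on day 3, and 54 features were called in day 7 against day 1. After a further quantile normalization 1 gene passed it in day 7 against day 1, and Lcn2 had -0.035 and Stat3 -0.092 on day 3. Same-numbered arrays of day 1, day 7 and intact spleens 1 to 3 deviated together with r from -0.21 to 0.21, 1 of 9 over 0.1, so the numbers were not taken as pairs. With the replicate block 3 genes passed the fold rule on day 1 and 3 on day 7, and 22 features were called in day 7 against day 1. No paired analysis was possible for day 3 because its arrays share no number with intact spleens 4 to 6.

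With each array left out in turn, the features called ran from 0 to 36 on day 1, 0 to 70 on day 3, 0 to 111 on day 7 and 0 to 54 in day 7 against day 1, and the genes past the fold rule from 1 to 4, 0 to 2, 0 to 1 and 1 to 2, with 4 on day 1 without day 1 replicate 1 or 3 and 2 on day 3 without day 3 replicate 3. Serpina3n stayed among them on day 1 for each array left out, and Hp on day 7 was lost without intact spleen 2 or 3 or day 7 replicate 2. The differences ran from -0.22 to 0.83 for Lcn2, -0.25 to 0.22 for Socs3 and -0.16 to 0.27 for Il1rn on day 1. On day 3 they ran from -1.01 to 1.37 for Lcn2, -0.82 to 2.11 for Hp, -0.015 to 0.81 for Bcl3 and -0.21 to 0.38 for Stat3, and on day 7 from -0.43 to 1.15 for Serpina3n, -0.13 to 0.17 for Socs3 and -0.032 to 0.44 for Bcl3. Signal limits what can be seen for Socs3, below the array median on all 15 arrays, for Il1rn, below it on 14, and for Lcn2, at the upper end of the scale on 3.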
